A study of Mus musculus with 2 samples.

Results

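The receptor of gamma delta T cells pairs a gamma chain with a delta chain. *Trdc* encodes the constant part of the delta chain, and *Tcrg-C1*, *Tcrg-C2* and *Tcrg-C4* encode the constant parts of gamma chains that belong to different gene clusters. *Sox13* encodes an HMG-box transcription factor and *Blk* a kinase of the Src family, both linked to gamma delta T cells in the thymus. These genes were followed in mouse fetal liver cells that were turned towards the T lineage in culture. The 6 genes were chosen by name with earlier results of these data known, so their levels are a description and not a test. All 6 were found among the 28692 genes of the deposited tables.

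Hematopoietic stem and progenitor cells that carried Sca-1 and cKit came from TER-119 depleted livers of wild type CD1 mouse embryos at E13.5. Their culture plates were coated with the Notch ligand DL4 at 10 µg/mL and the adhesion molecule VCAM-1 at 2.32 µg/mL. Single cells were captured with 10X Chromium in 2 libraries, FL001 and FL002, whose labels give the same strain, genotype, age and coating. Cells captured directly after sorting and cells captured after days of culture were pooled, and which of these each library holds was not given in the sources used here. The libraries were therefore not taken as replicates, and each was described alone.

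A barcode was kept as a cell if it held 1500 or more UMIs (unique molecular identifiers, each standing for 1 captured RNA molecule) of 500 or more genes, with no more than 10% of them mitochondrial. This gave 1788 cells with a median of 7722 UMIs in FL001, and 4100 with a median of 4752.5 in FL002. A level is given in CPM, that is, as the UMIs of the gene in a group of cells for each 1000000 UMIs of the group. Intervals in parentheses are at 95% and exact (Poisson for levels, binomial for shares, conditional binomial for ratios), except that differences of shares have Newcombe intervals, and all cover counting error only. With 1 library of each kind there is no replicate error, and no p-value was computed. In the kept cells, 10 barcodes occurred in both libraries, and *Xist* was found together with a Y-linked gene in 64 cells of FL001 (3.58%) and 105 of FL002 (2.56%). Whether these came from embryos of both sexes under 1 barcode or from free RNA was not tested.

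The UMIs of other genes placed the cells in 6 gates. The Lmo2/Mef2c gate (at least 2 UMIs of the progenitor genes *Lmo2* and *Mef2c* together, at most 1 of *Cd3g*) held 428 and 724 cells in FL001 and FL002. The early gate (at most 2 UMIs of *Cd3g*, at most 1 of *Lmo2* and *Mef2c*) held 381 and 1134. The Cd3g gate (at least 3 UMIs of *Cd3g*, which encodes a CD3 subunit, and 0 of *Il2ra*) held 327 and 873, and the Il2ra gate (at least 1 UMI of *Il2ra*, which encodes CD25) held 738 and 1668. The commitment gate (at least 2 UMIs of *Ptcra*, *Lef1* and *Bcl11b* together) held 451 and 501, and the innate gate (at least 2 UMIs of *Rora*, *Klrd1* and *Ncr1* together) held 38 and 33. Gates may share cells, and 565 cells of FL001 and 829 of FL002 were in at least 2 of them. Ratios kept shared cells on both sides unless stated otherwise, and their intervals treat the 2 sides as independent. The Il2ra and Lmo2/Mef2c gates shared 17 and 36 cells. As a background, 71 and 65 cells with at least 10 UMIs of neutrophil and monocyte genes and at most 1 of *Cd3g* formed a myeloid reference. These cells should lack the receptor, although 57 and 46 of them were also in the Lmo2/Mef2c gate. The background is thus that of myeloid cells chosen to be low in *Cd3g*.

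The gates differed in markers that no gate used. The 5 progenitor markers other than *Lmo2* and *Mef2c* summed to 453 and 431 CPM in the Lmo2/Mef2c gate of FL001 and FL002 and to 34.8 and 40.9 CPM in the Il2ra gate. The 4 T-lineage markers that are not gate genes (*Cd3d*, *Cd3e*, *Tcf7* and *Gata3*) summed to 45.3 and 58.4 CPM in the former and to 794 and 839.97 in the latter. The early gate was mixed, with neutrophil and monocyte markers at 3299 and 811 CPM against 189 and 61.9 in the Il2ra gate, and erythroid markers at 719 and 7.65 CPM. Both lists were thus higher in the early gate of FL001 than in that of FL002, and their part in the levels of this gate was not tested. The Lmo2/Mef2c gate was mixed too, with neutrophil and monocyte markers at 1493 and 920 CPM. Its megakaryocyte markers summed to 666 and 337 CPM, against 36.5 and 28.4 in the Il2ra gate. The part of such cells in its levels, and in the ratios to this gate, was not tested.

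The gamma constant genes lie close together on chromosome 13, and the delta constant gene lies within the alpha locus on chromosome 14, between the delta and the alpha joining segments. Constant genes of the receptor can be transcribed before their locus is rearranged, and signals through the IL-7 receptor are known to open the gamma locus, so that a constant transcript does not by itself show a finished chain. The deposited tables pair gene symbols with Ensembl identifiers and hold no coordinates. The labels name the build mm9, whereas the positions given here are those of GENCODE M21 on GRCm38, in which 28339 of the 28692 identifiers were found. *Tcrg-C1* (ENSMUSG00000076749) lies at chr13:19214103-19217024 on the plus strand, *Tcrg-C2* (ENSMUSG00000076752) at chr13:19304649-19307551 on the minus strand and *Tcrg-C4* (ENSMUSG00000076757) at chr13:19344558-19352756 on the plus strand. The fourth gamma constant gene, *Tcrg-C3* (ENSMUSG00000091682), lies between *Tcrg-C1* and *Tcrg-C2* at chr13:19260884-19263528. *Trdc* (ENSMUSG00000104876) lies at chr14:54142851-54148868 on the plus strand, overlapped on the other strand by *Gm43434* and *Trdv5*, which had 0 UMIs in either library. *Sox13* (ENSMUSG00000070643) lies at chr1:133382303-133424377 and *Blk* (ENSMUSG00000014453) at chr14:63372836-63417037, both on the minus strand and with no other annotated gene over them.

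Because the gamma constant genes are copies of each other, the start of their coding part is shown, 120 bases from the GENCODE M21 transcripts on GRCm38, 5′ to 3′. Capitals mark bases that differ from *Tcrg-C1*, 2 in *Tcrg-C2*, 4 in *Tcrg-C3* and 14 in *Tcrg-C4*. The stretches are chr13:19214103-19214222 of *Tcrg-C1* (plus strand), chr13:19307432-19307551 of *Tcrg-C2* (minus strand), chr13:19260885-19261004 of *Tcrg-C3* (plus strand) and chr13:19344558-19344677 of *Tcrg-C4* (plus strand).
Tcrg-C1: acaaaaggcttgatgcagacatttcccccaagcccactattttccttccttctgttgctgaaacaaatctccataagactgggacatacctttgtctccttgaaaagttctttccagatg
Tcrg-C2: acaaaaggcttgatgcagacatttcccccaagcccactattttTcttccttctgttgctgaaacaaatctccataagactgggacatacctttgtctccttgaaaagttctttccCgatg
Tcrg-C3: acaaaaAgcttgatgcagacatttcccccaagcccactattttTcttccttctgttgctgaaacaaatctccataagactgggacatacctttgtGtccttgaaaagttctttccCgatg
Tcrg-C4: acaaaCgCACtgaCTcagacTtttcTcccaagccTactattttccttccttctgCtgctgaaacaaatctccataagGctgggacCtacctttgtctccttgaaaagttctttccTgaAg

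Over the aligned coding part, *Tcrg-C1* was 97.4% identical to *Tcrg-C2*, 96.8% to *Tcrg-C3* and 78.7% to *Tcrg-C4*. In the last 300 bases of the transcript, *Tcrg-C1* was 93.6% identical to *Tcrg-C2* and 60.4% to *Tcrg-C4*. Of all windows of 50 bases, 29.6% of those of *Tcrg-C1* and 25.4% of those of *Tcrg-C2* occurred unchanged in another gamma constant gene, and 0 of the 936 windows of *Tcrg-C4* did. The split of reads between *Tcrg-C1* and *Tcrg-C2* is therefore uncertain, and that between either of them and *Tcrg-C4* less so. The sum of the 3 genes, called the gamma sum here, does not depend on the split among them, but would miss reads counted for no gene. However, 17.6% of the windows of *Tcrg-C1* and 13.3% of those of *Tcrg-C2* also occur in *Tcrg-C3*, which is outside the sum. How reads from shared stretches were counted, or whether they were dropped, was not tested. Dropped reads would lower the gamma sum, and would lower *Tcrg-C1* and *Tcrg-C2* relative to *Tcrg-C4*.

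*Trdc* was nearly absent from cells with progenitor genes and was highest in cells with *Il2ra* or commitment genes. In FL001 its level was 1.62 (0.594 to 3.52) CPM in the Lmo2/Mef2c gate, 15.2 (11.1 to 20.3) in the early gate, 73.6 (63.9 to 84.3) in the Cd3g gate, 122 (113 to 130.4) in the Il2ra gate, 146 (134 to 159) in the commitment gate and 74.7 (43.5 to 119.6) in the innate gate. In FL002 its level was 1.65 (0.662 to 3.39) CPM in the Lmo2/Mef2c gate, 30.6 (26.3 to 35.4) in the early gate, 93.4 (84.6 to 103) in the Cd3g gate, 148 (139.98 to 157) in the Il2ra gate, 165 (149 to 182) in the commitment gate and 56.7 (27.2 to 104) in the innate gate. The order of the first 4 gates was the same in both libraries, and their intervals did not overlap. The innate gate, with 17 and 10 *Trdc* UMIs, could not be told apart from the Cd3g gate. The Lmo2/Mef2c gate, with 6 and 7 UMIs, did not stand above the myeloid reference, which had 1 UMI in each library.

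The level of *Trdc* in the Il2ra gate was 75.1 (34.3 to 205) times that of the Lmo2/Mef2c gate in FL001, and 89.9 (43.5 to 224) times in FL002. From the Lmo2/Mef2c to the early gate the ratio was 9.36 (3.98 to 26.9) in FL001 and 18.6 (8.83 to 46.9) in FL002, and from the early to the Cd3g gate 4.85 (3.50 to 6.86) and 3.05 (2.55 to 3.66). From the Cd3g to the Il2ra gate it was 1.65 (1.42 to 1.93) and 1.59 (1.42 to 1.78). All of these intervals lie above 1. The commitment and Il2ra gates, with the cells of both left out, were at a ratio of 1.01 (0.821 to 1.24) in FL001 and 0.844 (0.692 to 1.02) in FL002, so that neither was higher beyond counting error.

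The cells that were in both of these gates held the most *Trdc*. In FL001, the 275 Il2ra cells with commitment genes stood at 180.3 (163 to 199) CPM, against 91.5 (82.7 to 101) in the 463 without. In FL002, the 291 with them stood at 202 (179 to 228) CPM, against 138 (129 to 147) in the 1377 without. Of the Il2ra cells that were not in the commitment gate, 42.5% and 38.7% had a *Trdc* UMI. The Cd3g gate showed the same order, with 93.6 (77.9 to 111) and 115 (95.03 to 139) CPM in cells with commitment genes, against 55.4 (44.1 to 68.8) and 87.1 (77.5 to 97.6) in cells without, although the FL002 intervals overlap. Early cells without *Il2ra* had 11.5 (7.49 to 16.8) CPM in FL001 and 14.5 (11.2 to 18.5) in FL002.

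In single cells *Trdc* was sparse. In FL001, at least 1 UMI was found in 1.17% of the cells of the Lmo2/Mef2c gate, 7.61% of the early, 36.4% of the Cd3g, 47.7% of the Il2ra, 51.4% of the commitment and 28.9% of the innate gate. In FL002 these shares were 0.967%, 10.1%, 30.1%, 40.2%, 42.3% and 24.2%. In every gate a cell with *Trdc* held a median of 1 UMI, and the most in any cell was 22 in FL001 and 9 in FL002. With each cell thinned to 1500 UMIs, the share of the Il2ra gate was 16.3% in FL001 and 21.5% in FL002, the reverse of the unthinned order. The ratio of the FL002 to the FL001 level was 2.02 (1.45 to 2.86) in the early gate, 1.27 (1.07 to 1.51) in the Cd3g gate, 1.22 (1.11 to 1.33) in the Il2ra gate and 1.13 (0.986 to 1.29) in the commitment gate. The early gate held 75 cells with *Il2ra* in FL001 (19.7% of the gate) and 276 in FL002 (24.3%). Without them, its intervals in the libraries overlapped, as given above. The part of these cells in the difference between the libraries was not tested.

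**Figure D1:**
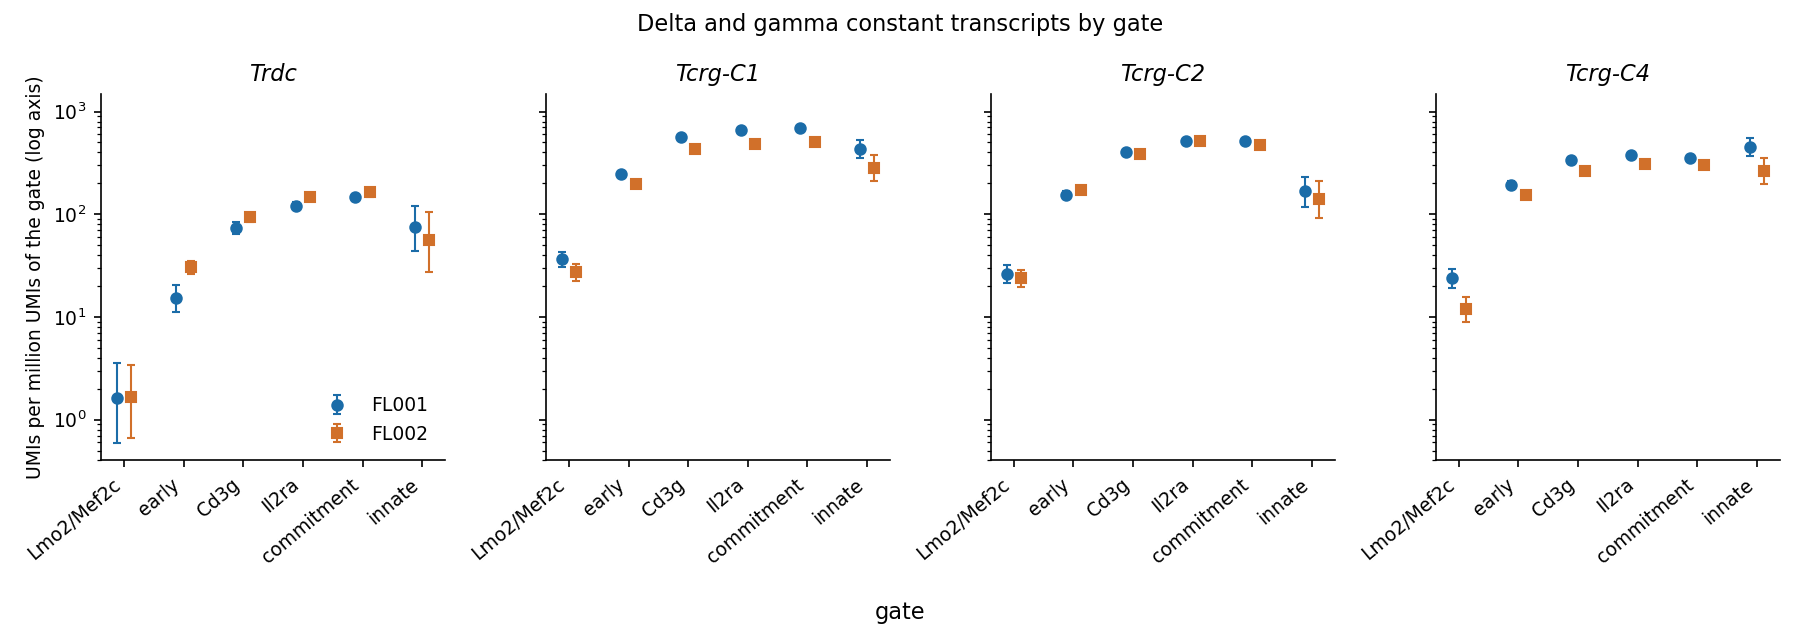
Levels of *Trdc*, *Tcrg-C1*, *Tcrg-C2* and *Tcrg-C4* in the 6 gates (CPM on a log axis), with a point for each library and bars for the 95% exact Poisson interval. *Trdc* spans 1.62 CPM in the Lmo2/Mef2c gate to 165 in the commitment gate, and the gamma constant genes already lie at 153 to 246 CPM in the early gate.

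The gamma constant genes stood above *Trdc* in every gate. A UMI is read from the end of a transcript and counts a captured molecule whatever its length. These levels are therefore set side by side as UMIs counted. Capture and assignment of reads may differ between genes, which was not tested. In FL001 the gamma sum was 86.4 (77.2 to 96.4) CPM in the Lmo2/Mef2c gate, 592 (565 to 620.2) in the early gate, 1299.7 (1258 to 1342) in the Cd3g gate, 1559.9 (1529.5 to 1591) in the Il2ra gate, 1564 (1523 to 1605) in the commitment gate and 1059 (929 to 1201) in the innate gate. In FL002 it was 63.1 (55.7 to 71.1) CPM in the Lmo2/Mef2c gate, 522 (504 to 541) in the early gate, 1091 (1061 to 1123) in the Cd3g gate, 1300.2 (1276 to 1325) in the Il2ra gate, 1281 (1236 to 1327) in the commitment gate and 692 (575 to 826) in the innate gate. The order of the first 4 gates was that of *Trdc*, again with no overlap of intervals.

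The gamma sum of the Il2ra gate was 18.1 (16.2 to 20.3) times that of the Lmo2/Mef2c gate in FL001 and 20.6 (18.3 to 23.4) times in FL002. From the Lmo2/Mef2c to the early gate the ratio was 6.85 (6.08 to 7.74) and 8.28 (7.31 to 9.42), from the early to the Cd3g gate 2.20 (2.07 to 2.33) and 2.09 (1.996 to 2.19), and from the Cd3g to the Il2ra gate 1.20 (1.16 to 1.25) and 1.19 (1.15 to 1.23). The first of these steps was the widest in both libraries. With the cells of both gates left out, the commitment gate was below the Il2ra gate, at 0.873 (0.828 to 0.921) times in FL001 and 0.858 (0.806 to 0.913) times in FL002. In the Lmo2/Mef2c gate the gamma sum stood above the myeloid reference, at 17.98 (6.95 to 66.4) times in FL001 and 4.10 (2.05 to 9.59) times in FL002, a reference that held 4 and 8 gamma UMIs. Most cells of that reference, 57 of 71 and 46 of 65, were also in the gate and were counted on both sides. These 2 intervals are thus not those of independent counts. A megakaryocyte reference held the 14 and 13 cells with at least 5 UMIs of megakaryocyte genes and at most 1 of *Cd3g*. Of these, 10 and 11 were also in the Lmo2/Mef2c gate. The gamma sum of this reference was 241.5 (160.5 to 349) CPM in FL001, from 28 UMIs in 1 cell. In FL002 it was 28.2 (3.41 to 101.8) CPM, from 2 UMIs. The Lmo2/Mef2c gate thus did not stand above this reference in either library.

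*Tcrg-C1* went from 36.4 (30.5 to 43.1) CPM in the Lmo2/Mef2c gate to 659 (639 to 679) in the Il2ra gate of FL001, and from 27.3 (22.6 to 32.7) to 479 (464 to 494) in FL002. *Tcrg-C2* went from 26.2 (21.2 to 31.9) CPM to 519 (502 to 537) in FL001, and from 23.8 (19.4 to 28.9) to 512 (497 to 528) in FL002. *Tcrg-C4* went from 23.7 (19.05 to 29.3) CPM to 382 (367 to 397) in FL001, and from 12.003 (8.94 to 15.8) to 309.6 (298 to 322) in FL002. Each of the 3 genes followed the order of the gamma sum over the first 4 gates. In the Il2ra gate the FL002 level was 0.726 (0.695 to 0.758) times that of FL001 for *Tcrg-C1*, 0.986 (0.942 to 1.03) times for *Tcrg-C2* and 0.811 (0.768 to 0.858) times for *Tcrg-C4*, so that *Tcrg-C2* alone did not differ beyond counting error. *Tcrg-C3*, which is not in the sum, had few UMIs, with 10.2 (7.93 to 13.04) CPM in the Il2ra gate of FL001 and 8.35 (6.51 to 10.5) in that of FL002. Of its windows of 50 bases, 36.2% occurred unchanged in another gamma constant gene. In its last 300 bases 51.8% did, against 21.9% for each of *Tcrg-C1* and *Tcrg-C2*. The part of this in its low count was not tested.

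Genes with at least 20 CPM in either gate were called where their levels, after 5 CPM was added to both, differed by at least 4 times. *Trdc*, *Tcrg-C1*, *Tcrg-C2* and *Tcrg-C4*, 4 of 4 tested, were higher in the Il2ra than in the Lmo2/Mef2c gate in both libraries. Of the 5923 genes tested in FL001, 1.54% were higher and 1.27% lower, and of the 5866 in FL002, 1.14% were higher and 1.11% lower. As the genes were chosen with this contrast known, nothing is read from the count. *Sox13* and *Blk* were under 20 CPM and were not tested. Between the innate and the Il2ra gate, 0 of the 4 genes were called in either direction. There, 1.45% of 6141 genes were higher and 0.961% lower in FL001, and 1.31% of 6166 were higher and 0.924% lower in FL002. These calls kept the 12 and 8 shared cells on both sides. *Tcrg-C2* came nearest to a call, at 0.328 and 0.284 times after the 5 CPM were added. With the shared cells left out, *Tcrg-C2* was at 133 against 524 CPM in FL001 and at 97.4 against 513 in FL002. The FL002 levels differ by more than 4 times also with 5 CPM added, so the count of 0 holds only with shared cells kept. *Trdc* without the shared cells was at 0.700 (0.348 to 1.26) times in FL001 and 0.253 (0.0819 to 0.591) in FL002, from 11 and 5 innate UMIs. Calls over all genes with the shared cells left out were not made.

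The balance of delta and gamma transcripts differed between gates. In FL001 *Trdc* made up 1.84% (0.678 to 3.96) of all delta and gamma constant UMIs in the Lmo2/Mef2c gate, 2.50% (1.83 to 3.33) in the early gate, 5.36% (4.67 to 6.11) in the Cd3g gate, 7.23% (6.75 to 7.74) in the Il2ra gate and 8.54% (7.85 to 9.27) in the commitment gate. In FL002 it made up 2.55% (1.03 to 5.17), 5.53% (4.77 to 6.38), 7.88% (7.17 to 8.65), 10.2% (9.69 to 10.8) and 11.4% (10.3 to 12.5). In both libraries the delta part was larger in the Il2ra than in the Cd3g gate, and larger in the Cd3g than in the early gate, with no overlap of intervals. Barcodes with at most 100 UMIs, which hold free RNA, gave 7.93% (6.33 to 9.79) in FL001 and 7.40% (6.01 to 9.0002) in FL002. The early gate lay below that value in FL001, and in FL002 the intervals overlapped.

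Nearly every cell with a *Trdc* UMI had a gamma UMI too, whereas most cells with a gamma UMI had none of *Trdc*. Over all kept cells, 98.4 (96.8 to 99.3) percent of the *Trdc* cells of FL001 and 95.2 (93.7 to 96.5) percent of those of FL002 had a UMI of *Tcrg-C1*, *Tcrg-C2* or *Tcrg-C4*. Among the cells without *Trdc*, 57.1 (54.4 to 59.9) and 59.1 (57.3 to 60.8) percent did. These pooled shares mix gates in which both were rare with gates in which gamma was common. Of the gamma cells, 39.6 (36.8 to 42.4) percent and 33.8 (32.1 to 35.6) percent had *Trdc*. In FL001, 485 cells had both, 740 gamma only, 8 *Trdc* only and 555 neither. In FL002, 941 cells had both, 1839 gamma only, 47 *Trdc* only and 1273 neither. With so few UMIs of *Trdc* per cell, a cell in which it was not found is not shown to lack it.

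Within the Il2ra gate the *Trdc* cells were the richer in gamma. In FL001, 99.4 (97.96 to 99.9) percent of the *Trdc* cells and 93.3 (90.3 to 95.6) percent of the other cells had gamma, a difference of 6.17 (3.60 to 9.15) points. In FL002 the shares were 97.6 (96.2 to 98.6) and 89.3 (87.2 to 91.1) percent, a difference of 8.35 (6.06 to 10.6) points. The *Trdc* cells were not the deeper ones, with medians of 7439.5 against 8493.5 UMIs in FL001 and 4062 against 4784 in FL002. With each cell thinned to 1500 UMIs, the shares were 85% against 75.1% in FL001 and 85.5% against 70.99% in FL002. When the gates too were set on thinned cells, the difference was 0.556 points in FL001 and 10.3 in FL002. The FL001 value lies outside the interval given above for that library. No interval was computed for the values from thinned gates, so whether they differ from the others beyond counting error was not tested. As a level, the gamma sum of the *Trdc* cells was 1834 (1785 to 1884) CPM against 1336 (1299 to 1375) in FL001, and 1583 (1539 to 1628) against 1135 (1106 to 1164) in FL002.

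In the Il2ra gate, 93.3 and 89.3 percent of the cells without *Trdc* already had gamma, which left room for only a small gap. The gap was wider in the early gate, and its width is not read as stronger co-detection. There gamma was found in 86.2 (68.3 to 96.1) percent of the *Trdc* cells of FL001 and 49.1 (43.8 to 54.5) percent of the others, and in 87.8 (80.4 to 93.2) and 49.8 (46.6 to 52.9) percent in FL002. In the Cd3g gate the difference was 4.57 (-0.385 to 8.89) points in FL001, an interval that holds 0, and 8.89 (4.32 to 12.9) in FL002. In the commitment gate it was 3.22 (0.560 to 6.63) and 4.91 (0.992 to 8.74) points, and with thinned cells both intervals held 0. In the myeloid reference, with medians of 11692 and 7911 UMIs, gamma was found in 5.63% and 12.3% of cells and *Trdc* in 1.41% and 1.54%. The Lmo2/Mef2c gate, with medians of 8014.5 and 5649.5 UMIs, had gamma in 17.3% and 15.7%.

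**Figure D2:**
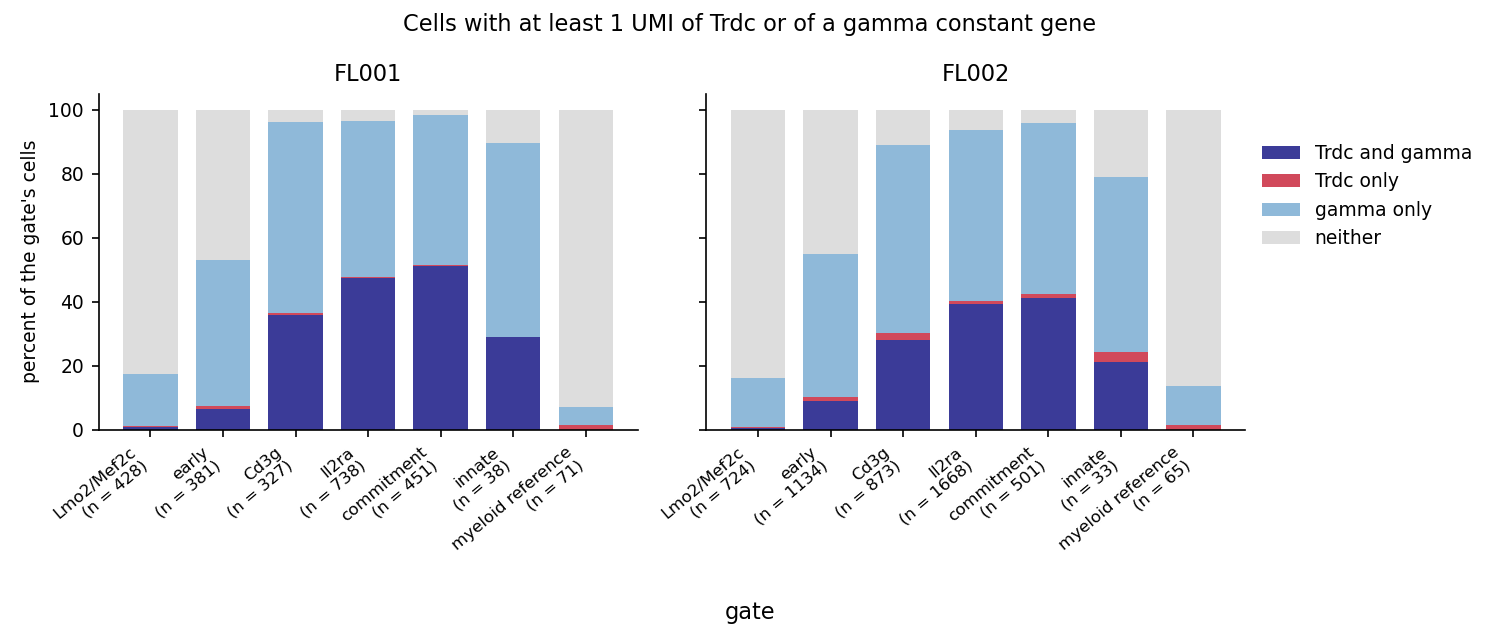
Percent of the cells of each gate with at least 1 UMI of *Trdc* and of a gamma constant gene, of either alone, or of neither, by library. *Trdc* without gamma makes up at most 3.03% of the cells of a gate, and gamma without *Trdc* up to 60.5%.

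Within the Il2ra gate, cells in which more of the gamma genes were found more often had *Trdc*. In the Il2ra gate of FL001, *Trdc* was found in 52.99% of the 485 cells with all 3 gamma genes, in 40.6% of the 64 with 1 of them and in 2 of the 28 with none. In FL002 it was found in 47.1% of the 712 with all 3, in 30.8% of the 286 with 1 and in 16 of the 123 with none. The order was not the same in every gate, as the Cd3g gate of FL002 had 35.1% with 2 gamma genes and 33.2% with 3. All 3 gamma genes were found in 65.7% and 42.7% of the Il2ra cells, and in 14.5% and 11.6% of them when thinned. How much of this joint detection came from reads assigned to the wrong gamma gene was not tested. The part of cell depth in these *Trdc* shares was not tested either.

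Set against the *Cd3g* UMIs of the cell, with all cells thinned to 1500 UMIs, gamma was common at low *Cd3g* and *Trdc* was not. Cells with 0 *Cd3g* UMIs had gamma in 22.1% (19.3 to 25.02) of cases in FL001 and 24.9% (22.96 to 27.02) in FL002, and *Trdc* in 0.830% (0.334 to 1.70) and 2.62% (1.93 to 3.47). At 1 *Cd3g* UMI the gamma shares were 58.96% (50.1 to 67.4) and 59.1% (54.1 to 63.9), and the *Trdc* shares 7.46% (3.64 to 13.3) and 12.5% (9.45 to 16.1). At 6 or more they were 86.2% (82.3 to 89.5) and 78.5% (75.5 to 81.3) for gamma, and 25.3% (20.95 to 29.98) and 25.9% (22.9 to 29.1) for *Trdc*. *Il2ra* was found in 5.34%, 24.6% and 37.2% of the cells at these 3 counts in FL001, and in 7.59%, 26.96% and 42.8% in FL002. A gene of lower level is found in a smaller share of cells at any depth, so the gamma and *Trdc* shares are set side by side and no order in time is read from them.

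**Figure D3:**
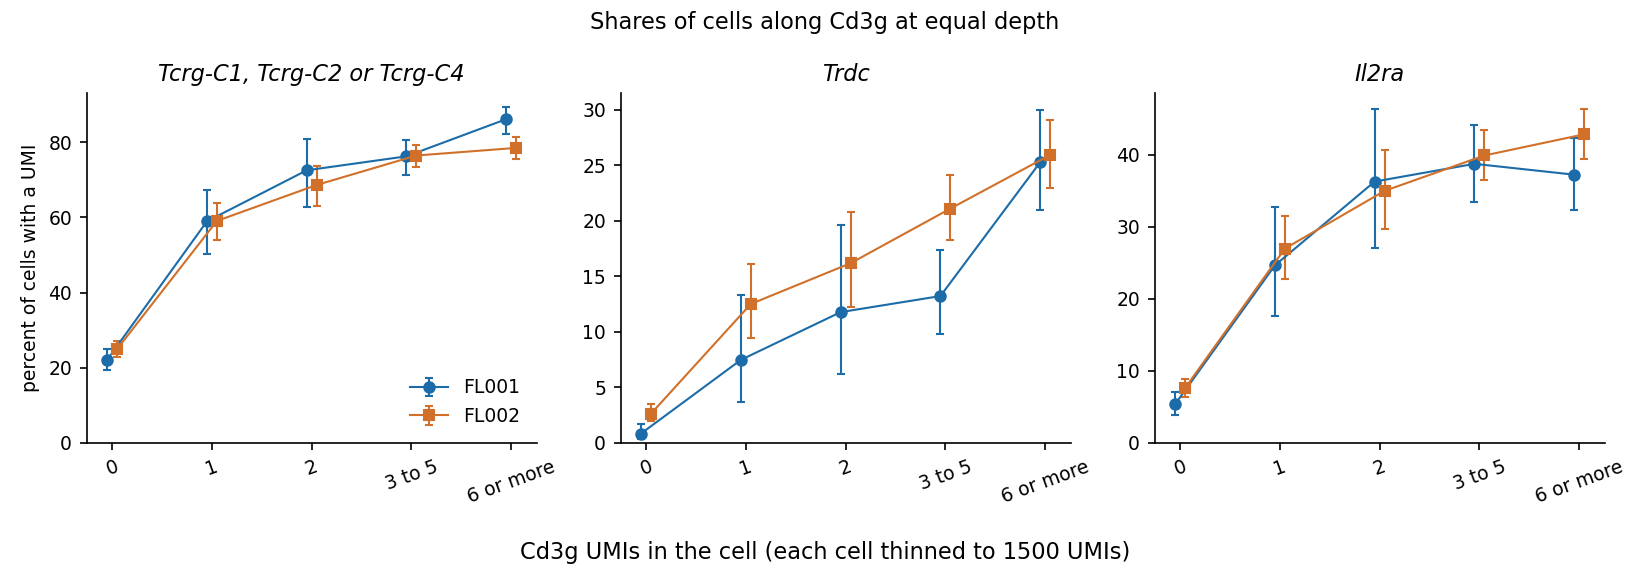
Percent of cells with at least 1 UMI of a gamma constant gene, of *Trdc* and of *Il2ra* against the *Cd3g* UMIs of the cell, each cell thinned to 1500 UMIs, by library, with 95% exact binomial intervals and its own scale in each panel. At 1 *Cd3g* UMI the gamma shares are 58.96% and 59.1%, and the *Trdc* shares 7.46% and 12.5%.

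The part of the gamma UMIs that came from *Tcrg-C2* was smaller in the innate than in the Il2ra gate. In the Il2ra gate, *Tcrg-C1* gave 42.2% (41.3 to 43.2) of the gamma UMIs in FL001 and 36.8% (35.9 to 37.7) in FL002, *Tcrg-C2* gave 33.3% (32.4 to 34.2) and 39.4% (38.5 to 40.3), and *Tcrg-C4* gave 24.5% (23.6 to 25.3) and 23.8% (23.01 to 24.6). *Tcrg-C1* led in FL001 and *Tcrg-C2* in FL002, which are the 2 genes whose reads are hardest to tell apart. In the early gate *Tcrg-C4* had a larger part than in the Il2ra gate, 32.5% (30.3 to 34.7) and 29.3% (27.7 to 30.9), and *Tcrg-C2* a smaller one, 25.95% (23.9 to 28.1) and 32.96% (31.3 to 34.7).

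In the innate gate, *Tcrg-C2* gave 15.8% (11.4 to 20.99) of 241 gamma UMIs in FL001 and 20.5% (13.7 to 28.7) of 122 in FL002, and *Tcrg-C4* gave 43.2% (36.8 to 49.7) and 38.5% (29.9 to 47.8). As a level, with cells of both gates left out, *Tcrg-C2* was at 0.253 (0.147 to 0.406) times the Il2ra gate in FL001 and 0.190 (0.101 to 0.325) times in FL002, and *Tcrg-C1* at 0.695 (0.528 to 0.898) and 0.516 (0.355 to 0.726) times. *Tcrg-C4* was at 1.17 (0.884 to 1.52) and 0.870 (0.608 to 1.21) times, intervals that hold 1. *Tcrg-C4* was found in 84.2% and 69.7% of the innate cells, and *Tcrg-C2* in 39.5% and 33.3%. Such sums can rest on a few cells, so cells with at least 5 gamma UMIs were also given equal weight. In the 15 and 10 such innate cells, *Tcrg-C2* gave a mean of 19.5% and 19.9% of the gamma UMIs of a cell, against 33.4% and 39.8% in the 574 and 924 such Il2ra cells. *Tcrg-C4* gave a mean of 39.7% and 34.5% of a cell against 27.2% and 23.8%, but in FL002 the medians were 23.6% and 20%, and the interval of the innate share of UMIs there overlaps that of the early gate.

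**Figure D4:**
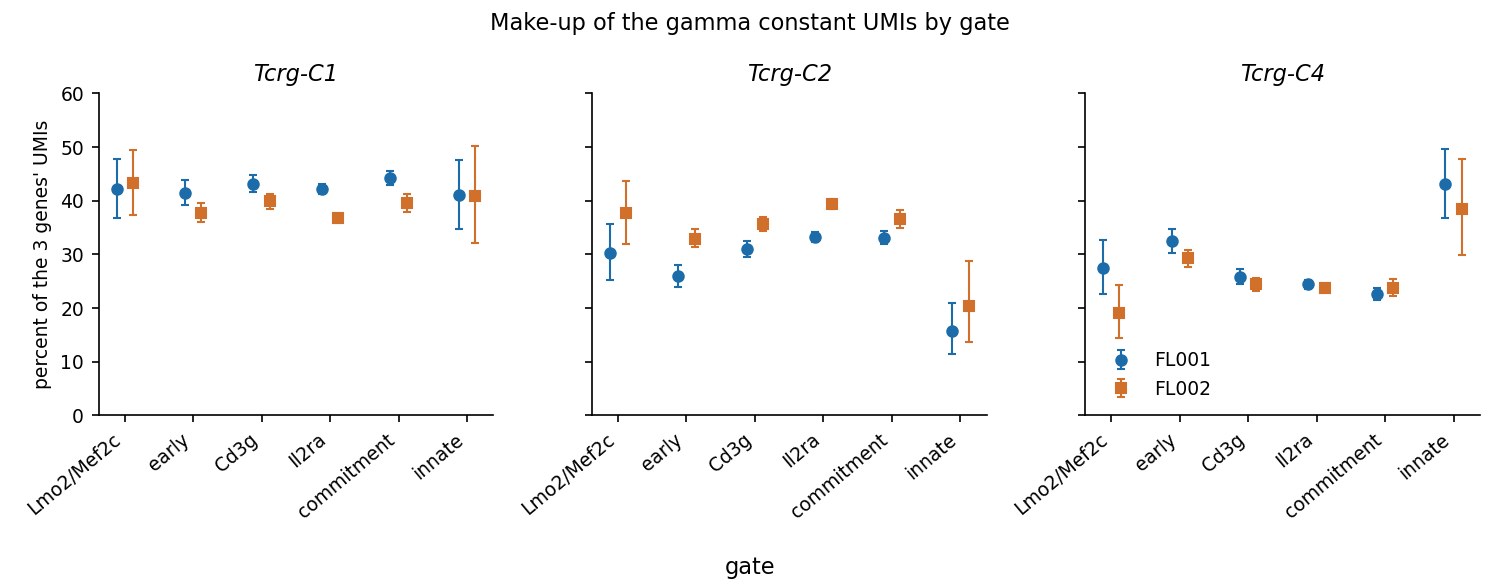
Percent of the gamma constant UMIs of each gate that came from *Tcrg-C1*, *Tcrg-C2* and *Tcrg-C4*, by library, with 95% exact binomial intervals. The innate gate has the lowest *Tcrg-C2* share of the 6 gates, 15.8% in FL001 and 20.5% in FL002, and the highest *Tcrg-C4* share, 43.2% and 38.5%, the latter with an interval that overlaps that of the early gate.

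*Sox13* was rare and did not follow the receptor genes. It had 86 UMIs in FL001 and 130 in FL002, at most 2 in a cell. In FL001 its level was 8.91 (6.13 to 12.5) CPM in the Lmo2/Mef2c gate, 6.74 (4.12 to 10.4) in the early gate, 2.83 (1.22 to 5.58) in the Cd3g gate, 4.81 (3.27 to 6.83) in the Il2ra gate and 1.68 (0.616 to 3.65) in the commitment gate. In FL002 it was 5.41 (3.43 to 8.12) CPM in the Lmo2/Mef2c gate, 7.48 (5.44 to 10.04) in the early gate, 6.13 (4.04 to 8.92) in the Cd3g gate, 5.72 (4.22 to 7.59) in the Il2ra gate and 4.22 (2.02 to 7.77) in the commitment gate. The intervals of all 5 gates overlap in FL002. The innate gate had 1 *Sox13* UMI in FL001 and 0 in the 33 cells of FL002, where the exact binomial interval of the share of cells with a UMI ends at 10.6%.

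The Il2ra gate was at 0.541 (0.320 to 0.910) times the *Sox13* level of the Lmo2/Mef2c gate in FL001 and at 1.06 (0.631 to 1.82) times in FL002. The commitment gate was at 0.188 (0.0646 to 0.456) times in FL001 and at 0.780 (0.331 to 1.70) times in FL002. Both ratios thus lay below 1 in FL001, and in FL002 neither differed from 1 beyond counting error. The myeloid reference had 6.004 (1.95 to 14.01) CPM in FL001 and 3.85 (0.466 to 13.9) in FL002, and the Lmo2/Mef2c gate did not stand above it. Of the *Sox13* cells, 10.8% (5.08 to 19.6) in FL001 and 24.6% (17.4 to 33.1) in FL002 had *Trdc*, against 28.4% and 24.1% of the rest. *Lmo2* or *Mef2c* was found in 53.01% (41.7 to 64.1) and 38.9% (30.3 to 47.98) of them, against 35.4% and 33.4% of the rest. The *Sox13* cells were the deeper, with medians of 9523 against 7644 UMIs in FL001 and 5889.5 against 4732 in FL002, and the part of depth in these shares was not tested.

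*Blk* was at the limit of detection, with 13 UMIs in FL001 and 20 in FL002. The Il2ra gate held 10 and 11 of these, a level of 1.55 (0.745 to 2.86) and 1.31 (0.655 to 2.35) CPM, and the Lmo2/Mef2c gate held 2 in each library. The ratio of these gates was 2.88 (0.613 to 27.01) in FL001 and 2.79 (0.608 to 25.9) in FL002, so that a difference was not detectable at this depth. Of the 13 *Blk* cells of FL001, 7 had *Trdc* and 11 a gamma UMI, and of the 18 of FL002, 6 and 13 did. *Blk* was found in 0 of the 83 and 0 of the 126 *Sox13* cells, with upper ends of the exact binomial interval of 4.35% and 2.89%.

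**Figure D5:**
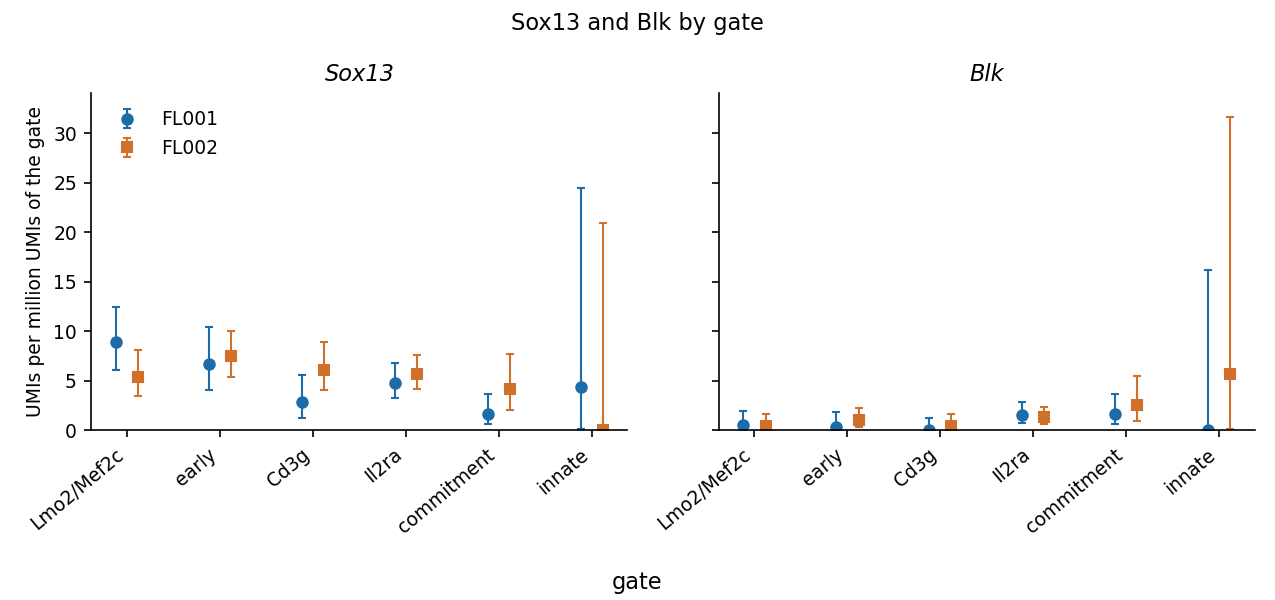
Levels of *Sox13* and *Blk* in the 6 gates (CPM) by library, with 95% exact Poisson intervals. *Sox13* reaches at most 8.91 CPM and *Blk* at most 5.67 CPM, the latter from 1 UMI, and the intervals are widest in the innate gate.

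Most of the other receptor genes listed had no UMI, although a UMI is read near the end of a transcript, so that a chain that holds a variable segment would be counted at its constant gene. Of 24 listed variable, diversity, joining and constant genes, 13 in FL001 and 15 in FL002 had 0 UMIs, among them all listed delta variable, diversity and joining genes. *Trac*, the alpha constant gene, had 1 and 0 UMIs in the 2 libraries, and *Trgv2*, a gamma variable gene, 25 and 28. The beta constant gene *Trbc2* stood above each gamma gene, at 531 and 564 CPM in the Lmo2/Mef2c gate, 1497 and 1607 in the early gate and 1805 and 1866 in the Il2ra gate of FL001 and FL002. *Trbc1* was at 52.1 and 55.1 CPM in the Lmo2/Mef2c gate, 470.4 and 444 in the Il2ra gate and 778 and 885 in the innate gate. Of this list, 2 genes were tested between the Il2ra and the Lmo2/Mef2c gate, and *Trbc1* was called higher in each library. The share called higher among all genes tested was 1.54% in FL001 and 1.14% in FL002.

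The CD3 and pre-receptor genes encode proteins that carry the receptor to the surface and signal for it. Of 4 tested, 4 were called higher in the Il2ra than in the Lmo2/Mef2c gate in each library, with a median log2 ratio of 4.63 in FL001 and 4.35 in FL002, against -0.02 over all genes tested in each. Of these, *Cd3g* and *Ptcra* are gate genes, and the call of *Cd3g* was fixed by the cap on it in the Lmo2/Mef2c gate. Without them, *Cd3d* and *Cd3e* were left, both called higher in each library, with medians of 4.52 and 4.08. Among all genes tested between these gates, 1.54% in FL001 and 1.14% in FL002 were called higher. In the Il2ra gate *Cd3g* was at 2814 and 2443 CPM, *Cd3d* at 352 and 280.1, *Ptcra* at 87.4 and 84.8 and *Cd3e* at 78.4 and 82.5. Of the Src family and receptor signalling genes, to which *Blk* belongs, 1 of 5 tested was called in each library, with medians of -0.09 and 0.16. It was *Lck*, the main Src family kinase of T cells, at 27.5 and 29.7 CPM in the Lmo2/Mef2c gate and 261 and 207 in the Il2ra gate. The adaptor gene *Lat* went from 52.4 and 61.7 to 169.6 and 216 CPM, and *Fyn* and *Lyn*, other kinases of the family, were at 43.9 and 48.1 and at 27.3 and 27.2 CPM in the Il2ra gate.

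Of the IL-7 signalling and recombination genes, 0 of 5 were called in FL001 and 0 of 6 in FL002, with medians of 0.54 and 0.64. In the Il2ra gate *Jak1* was at 104 and 100.3 CPM, *Il2rg* at 55.3 and 54.97, *Stat5a* at 38.5 and 39.1 and *Il7r*, which encodes the IL-7 receptor chain, at 34.6 and 24.4. *Dntt*, whose product adds bases at receptor joints, had 2 and 0 UMIs. Of the 5 HMG genes listed, *Sox5* and *Sox6* were under 20 CPM in both gates and were not tested. Of the 3 tested, 2 were called higher in each library, with medians of 3.23 and 2.53, namely *Tcf7* and the gate gene *Lef1*. Without *Lef1*, 1 of 2 was called, with medians of 1.74 and 1.87. Over all genes tested, 1.54% and 1.14% were called higher there. *Tcf7*, which encodes TCF-1, was at 24.8 and 35.1 CPM in the Lmo2/Mef2c gate and 275 and 386 in the Il2ra gate. *Sox4* was at 223 and 246 and then at 264 and 339.7 CPM, and was not called.

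Genes of gamma delta effector cells, other than *Sox4*, were low in the Il2ra gate. Of 11 listed, *Il17a* had 0 UMIs in both libraries. In the Il2ra gate *Sox4* led this list, followed in FL001 by *Zbtb16*, which encodes PLZF, at 39.4 and 34.8 CPM and *Cd163l1* at 23.4 and 9.78 in FL001 and FL002. Between the Il2ra and the Lmo2/Mef2c gate, 1 of 3 tested was called higher in FL001, *Cd163l1*, and 0 of 2 in FL002, with medians of 1.89 and 1.13. There, 1.54% and 1.14% of all genes tested were called higher. Between the innate and the Il2ra gate, 2 of 5 were called higher in FL001 and 2 of 5 in FL002, with medians of 1.49 and 1.59 against 0.02 over all genes tested in each. In that contrast, 1.45% and 1.31% of all genes tested were called higher. In the innate gate *Zbtb16* was at 101 and 79.4 CPM, *Cd163l1* at 74.7 and 79.4 and *Maf* at 35.1 and 45.4. By the rule for calls, *Zbtb16* was not called in either library and *Cd163l1* was not called in FL001. The genes called in FL001 are therefore not all named here.

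Of the gamma delta selection and interferon genes, 2 of 4 were called lower in the Il2ra than in the Lmo2/Mef2c gate in FL001 and 0 of 4 in FL002, with medians of -1.78 and -1.13. Over all genes tested, 1.27% and 1.11% were called lower there. Those of the list called lower in FL001 were *Id3* and *Nr4a1*, whose levels follow receptor signals in T cells. *Id3* was at 52.6 and 73.2 CPM in the Lmo2/Mef2c gate and 6.99 and 28.02 in the Il2ra gate, and *Nr4a1* at 52.1 and 32.01 and at 2.95 and 6.44. *Egr1* went from 78.3 and 81.9 to 29.04 and 37.7 CPM, and *Cd27* was at 131 and 140.3 and at 118 and 144. *Ifng*, the interferon gamma gene, had 1 UMI in each library. In the innate gate, 2 of 6 tested were called higher than in the Il2ra gate in FL001 and 3 of 6 in FL002. The medians of that contrast were 1.86 and 1.69, and 1.45% and 1.31% of all genes tested were called higher.

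Of the 10 markers of innate lymphoid and NK cells, 3 define the innate gate. The other 7 summed to 1739.9 and 1645 CPM there, against 497 and 528 in the Il2ra gate. The 4 T-lineage markers that are not gate genes summed to 738 and 675 CPM in the innate gate, against 794 and 839.97 in the Il2ra gate. Of the innate cells, 16 in FL001 and 15 in FL002 were also in the Cd3g gate, and 12 and 8 in the Il2ra gate. Neutrophil and monocyte markers summed to 26.4 and 56.7 CPM in the innate gate, with 8 and 6 of 9 at 0. Mast cell and basophil markers summed to 2012 and 1412 CPM in the innate gate against 208 and 167 in the Il2ra gate. Most of this was *Gzmb*, a granzyme gene that NK cells also express, at 1749 and 1151 CPM, while *Ms4a2* and *Prss34* were at 0. The rest came from the other markers of the list, *Cpa3* and *Mcpt8*. In the Il2ra gate *Cpa3* led the list, at 115 and 107 CPM. The part of mast cells and basophils in the levels of the innate gate was not tested.

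Over the 12 levels of 6 gates in 2 libraries, likeness to *Trdc* was measured as Pearson's r of log2(CPM + 1) among 7064 genes with at least 20 CPM in any of them. The members and the genes that define the gates were left out of the rankings. The genes most like *Trdc* were *Tnfsf11* (r = 0.990), *Fam20a* (0.988), *Dnase2a* (0.988), *Fam169b* (0.986) and *Prkch* (0.982). *Tnfsf11*, which encodes RANKL, was at 2.70 and 4.001 CPM in the Lmo2/Mef2c gate and at 33.2 and 38.5 in the Il2ra gate. Those most like the gamma sum were *Sytl3* (0.985), *Trib3* (0.984), *Ifitm1* (0.982), *Gzma* (0.982) and *Sept6* (0.979). *Gzma*, a granzyme gene, was at 116 and 151 CPM in the Lmo2/Mef2c gate and at 5473 and 3266 in the Il2ra gate. By the same measure *Trdc* had r = 0.966 with *Tcrg-C1*, 0.960 with *Tcrg-C2*, 0.936 with *Tcrg-C4*, -0.363 with *Sox13* and 0.322 with *Blk*. The gates share cells and the libraries a protocol, so the 12 levels are not independent and r is a description only.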

How the data were processed

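The authors captured single cells with 10X Chromium, sequenced on a NextSeq and counted UMIs with CellRanger; version and annotation were not given in the sources used here, and the submitters' processing notes name the build mm9. The deposited values are raw counts of UMIs per gene and barcode for every listed barcode, with no normalization. FL001 totalled 16320118 UMIs and FL002 22651783, with 92.7% and 94.0% in kept cells. The shallowest kept cell had 1559 UMIs in FL001 and 1510 in FL002, and the deepest 27025 and 17589.

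UMIs were summed per gate and library with Python 3.11.15, numpy 2.4.6, scipy 1.17.1, pandas 2.3.3 and scanpy 1.11.5. Thinning drew 1500 UMIs per cell without replacement. Scrublet marked 7 cells of FL001 (0.391%) and 1 of FL002 (0.0244%), too few to be taken as working, so doublets were kept, and removal of the top 5% of its scores was an alternative. Steps across genes were tested on simulated data. Named genes are the 6 members, *Tcrg-C3*, the gate genes, other receptor genes with at least 20 UMIs, up to 4 genes of each other list with the largest level in the Il2ra gate, and the 5 genes most like *Trdc* and most like the gamma sum. *Trac*, *Dntt*, *Ifng*, *Maf*, *Gata3*, *Gzmb*, *Ms4a2*, *Prss34*, *Cpa3*, *Mcpt8*, *Sox5* and *Sox6* were named after values were seen. Gate genes were also left out of marker sums and of the CD3 and HMG lists after values were seen. 1 gene of the gamma delta effector list is not reported here and was left out of that list's counts and medians. Members, gates and lists were chosen with earlier results of these data known. Protein sequences were not used here.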

Additional observations from a re-analysis of the deposited data

Results flagged for a closer look

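Barcodes with at most 100 UMIs, which the comparisons did not use, held receptor transcripts at more than the 3 UMIs that a count of 0 would allow (3.31 CPM in FL001 and 2.67 in FL002). In FL001 *Trdc* was at 87.1 CPM, *Tcrg-C1* at 389, *Tcrg-C2* at 351 and *Tcrg-C4* at 271. In FL002 *Trdc* was at 81.8 CPM, *Tcrg-C1* at 430, *Tcrg-C2* at 357, *Tcrg-C4* at 238 and *Sox13* at 8.01. For comparison, *Trdc* was at 67.6 and 81.0 CPM over all kept cells.

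The libraries went in opposite directions for the following log2 ratios to the Lmo2/Mef2c gate, and the difference was not tested. For *Sox13* they were -0.40 in FL001 and 0.47 in FL002 in the early gate, -1.65 and 0.18 in the Cd3g gate, and -0.89 and 0.081 in the Il2ra gate. For *Blk* in the early gate, with 1 and 6 UMIs, they were -0.68 in FL001 and 1.12 in FL002.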

How the results depend on the processing

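Of 94 values recomputed under another setting, 82 stayed within the 95% interval of the value reported, 12 moved out of it, and none turned a direction whose interval excluded a ratio of 1. The alternatives were a minimum of 1000 or 3000 UMIs, a maximum of 5% mitochondrial UMIs, leaving out possible doublets (by Scrublet score, or by *Xist* with a Y gene) or shared barcodes, thinning to 1500 UMIs after or before gating, each cell in 1 gate, and the mean of per cell CPM. The *Trdc* log2 ratio of the Il2ra over the Lmo2/Mef2c gate ran from 6.12 to 7.13 in FL001 and from 6.21 to 7.82 in FL002 (7.82 after thinning, from 6.49). The gamma log2 ratio, 4.17 in FL001 and 4.37 in FL002, was 5.37 and 6.06 with gates and values from thinned cells, 4.64 and 4.70 with each cell in 1 gate, and 4.50 and 4.62 as the mean of per cell CPM; in FL001 it was 4.37 when thinned after gating. The gap in gamma share between *Trdc* cells and the others of the Il2ra gate was 6.17 and 8.35 points. It was 9.92 and 14.5 when thinned after gating. With thinned gates it was 0.556 in FL001 and 10.3 in FL002, the latter within the interval reported. It was 12.05 in FL002 with at least 2 UMIs of each, a setting chosen after seeing the data. *Sox13* in FL002 ran from -0.33 to 0.71 and so had no stable direction. *Blk* could not be computed with thinned gates, nor could *Sox13* in FL001 with thinned gates, nor *Trdc* with thinned gates in either library or thinned after gating in FL001, as the Lmo2/Mef2c gate then held 0 UMIs of the gene. Depth thus limits the ratios of *Trdc*, *Sox13* and *Blk* in thinned cells. No paired analysis was possible because each group is 1 library.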
